A study of Homo sapiens with 6 samples.

Results

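Chromosome 10 was described gene by gene in NCI-H1299, a lung cancer line of human origin, with the genes of its short arm set against those of its long arm. RNA was counted in 3 libraries of wild type cells and in 3 libraries of cells that overexpressed MTSS1, a membrane-binding scaffold protein of the actin cytoskeleton, from an mCherry-tagged plasmid. The overexpressing cells had been through hygromycin selection and cell sorting. The labels name no line with an empty plasmid and do not say whether the sorted cells were a pool or a clone, so the effects of MTSS1, plasmid, selection and sorting cannot be told apart. Members were the genes placed on chromosome 10 by their Ensembl identifier (GRCh38) with a mean of at least 2 CPM (read counts per library, rescaled so that libraries can be compared) over the 6 libraries. That gave 490 of the 64253 genes in the table and 490 of the 2143 placed on the chromosome, of which 1034 had at least 1 count. Positions were found for 56591 of the 64253 genes, and a gene without a position could not become a member. A boundary at 43.5 Mb had been chosen by the differences between these same groups. Of the members, 124 ended before it and 366 lay past it. Counts and medians for either side are therefore given as a description, with no test.

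Chromosome 10 is a medium-sized human chromosome whose short arm (10p) and long arm (10q) meet at a centromere that carries no annotated genes. Its short arm holds VIM, which encodes the intermediate filament vimentin, ZEB1, a repressor of epithelial genes, and ITGB1, an integrin chain. Its long arm holds CHUK and NFKB2, which encode a kinase and a precursor protein of the noncanonical NF-κB pathway. Cancer lines often carry rearranged chromosomes. RNA counts hold no measurement of DNA.

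MTSS1 itself stood at 18 to 24.3 CPM in wild type and 544 to 568 CPM in overexpressing libraries. The libraries held 13883380 to 29479453 counts, and the 2 libraries numbered 1 stood apart from the other 4 on the second principal component of the genes at or above the CPM limit. Markers of the lung lineage were low (NKX2-1 at most 2.92 CPM, NAPSA at most 0.529 CPM and SFTPC with 1 count in all), as was the epithelial marker EPCAM (at most 0.955 CPM). KRT8 was at 136 to 212 CPM in wild type and 30.3 to 68.8 CPM in overexpressing libraries, and KRT18 at 433 to 638 CPM and 223 to 396 CPM, both lower in every overexpressing library. The part of this difference in the results below was not tested. The 11 markers of blood, endothelial, stromal, erythroid and liver cells summed to 4.30 to 8.67 CPM in wild type and 4.19 to 10.6 CPM in overexpressing libraries. In bulk RNA, fewer cells of a type and less RNA per cell cannot be told apart.

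Promoter sequences are printed for 2 pairs of members, the first on opposite arms and the second close together on the short arm. Their relation to the RNA differences was not tested. ZNF33A and ZNF33B are closely related zinc finger genes on opposite sides of the centromere. The windows are the 250 bases before each start site in the RefSeq table (build GRCh38.p14), 5′ to 3′ on the gene's strand. ZNF33A was read from chr10:38010425-38010674 on the plus strand and ZNF33B from chr10:42638571-42638820 on the minus strand. Capitals mark bases that differ from, or have no partner in, the other copy in a global alignment.
ZNF33A: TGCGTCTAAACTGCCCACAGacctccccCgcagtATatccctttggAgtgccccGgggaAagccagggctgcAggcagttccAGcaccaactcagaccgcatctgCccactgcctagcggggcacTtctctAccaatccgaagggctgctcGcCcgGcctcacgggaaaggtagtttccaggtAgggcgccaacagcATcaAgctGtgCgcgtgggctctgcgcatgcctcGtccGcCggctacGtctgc
ZNF33B: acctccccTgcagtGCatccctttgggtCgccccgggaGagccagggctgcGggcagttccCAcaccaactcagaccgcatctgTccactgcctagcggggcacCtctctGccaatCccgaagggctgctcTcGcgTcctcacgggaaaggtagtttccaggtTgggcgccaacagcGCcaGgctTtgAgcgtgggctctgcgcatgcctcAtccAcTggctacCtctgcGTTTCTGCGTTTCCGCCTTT
The alignment had 205 identical bases in 272 columns (75.4%). KIAA1217 and PRTFDC1 lie close together on the short arm, with ARHGAP21 as the only member between them, and their log2 fold changes had opposite signs. KIAA1217 was read from chr10:23694477-23694726 on the plus strand and PRTFDC1 from chr10:24952607-24952856 on the minus strand, with CG pairs in capitals.
KIAA1217: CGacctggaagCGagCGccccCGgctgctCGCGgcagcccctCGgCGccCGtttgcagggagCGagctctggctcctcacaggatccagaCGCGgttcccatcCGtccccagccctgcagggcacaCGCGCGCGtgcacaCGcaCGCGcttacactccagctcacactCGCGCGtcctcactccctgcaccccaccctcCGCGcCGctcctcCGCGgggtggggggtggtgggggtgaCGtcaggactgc
PRTFDC1: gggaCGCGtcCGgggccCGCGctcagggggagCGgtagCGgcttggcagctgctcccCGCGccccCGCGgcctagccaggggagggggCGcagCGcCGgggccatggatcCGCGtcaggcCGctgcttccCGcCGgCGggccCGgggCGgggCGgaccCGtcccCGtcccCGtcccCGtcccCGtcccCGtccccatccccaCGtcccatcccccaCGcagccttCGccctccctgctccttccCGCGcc
The first held 29 CG pairs at 72.8% GC and the second 34 at 80.8% GC.

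Promoter windows of 300 bases (50 of them after the start) were found by symbol for 97 of 112 short-arm members, 37 of 50 long-arm members that started before 60 Mb and 267 of 328 from there on. Their median GC content was 67.3%, 64.7% and 65.0%, against 58.3% over the 27305 promoters of the table. Motifs were searched on both strands. The letters TATAAA were found in 3.09%, 8.11% and 5.99% of these windows, against 12% of all promoters in the table. The κB consensus was found in 22 of the 97 short-arm windows (22.7%), 10.8% and 10.5% of the long-arm windows, and 10.8% of all. The ETS-type letters CCGGAA were in 34.0%, 45.9% and 27.0%, against 17.6% of all, and the GC box GGGCGG in 67.0%, 73.0% and 65.2%, against 44.6%. The κB consensus and the GC box can overlap, since both hold runs of G. A match to these letters is a description of the window. All members reached the CPM limit, whereas the promoters of the table were not filtered by CPM. How far that filter sets the differences from the whole table was not tested.

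The short-arm genes were mostly higher in overexpressing cells, by a median of 1.23-fold, and the long-arm genes were not. Fold changes are those of overexpressing over wild type cells, fitted with edgeR on the counts, and a log2 ratio below is the same fitted value for a single gene. Before the boundary the median log2 fold change was 0.27 (quartiles 0.11 and 0.40), and 105 of 124 members (84.7%) lay above 0. Past it the median was -0.01 (quartiles -0.14 and 0.13), with 180 of 366 (49.2%) above 0. Over all 12607 tested genes at the same CPM limit the median was 0.00 and 50.6% lay above 0.

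The boundary of the rule is not the centromere. The largest gap between annotated genes of the chromosome ran from 38.8 to 42.1 Mb, and 12 members lay between that gap and 43.5 Mb, on the long arm. Those 12 had a median log2 fold change of -0.20, with 3 above 0. The 112 members before the gap, taken here as the short arm, had a median log2 fold change of 0.30 (quartiles 0.16 and 0.43, a median fold of 1.23), and 102 of them (91.1%) lay above 0. The 378 long-arm members had a median of -0.01, with 183 above 0. The medians differed by 0.28 at the boundary of the rule and by 0.31 at the gap.

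Each overexpressing library showed the shift. Relative to each gene's mean in wild type, the median log2 level of the short-arm members was -0.06, 0.00 and 0.07 in the wild type libraries (replicates 1 to 3) and 0.24, 0.31 and 0.31 in the overexpressing ones. The groups did not overlap. Since the boundary was chosen on these same libraries, that separation is a description and no independent support. For the long arm the same medians were -0.02, 0.02 and 0.02 in wild type and -0.03, 0.00 and -0.01 in overexpressing libraries, and the groups overlapped. Titles of the libraries carry numbers that form 3 neighbouring pairs of 1 wild type and 1 overexpressing library. Within those pairs the short-arm median difference was 0.29, 0.34 and 0.26 on the log2 scale.

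**Figure D1:**
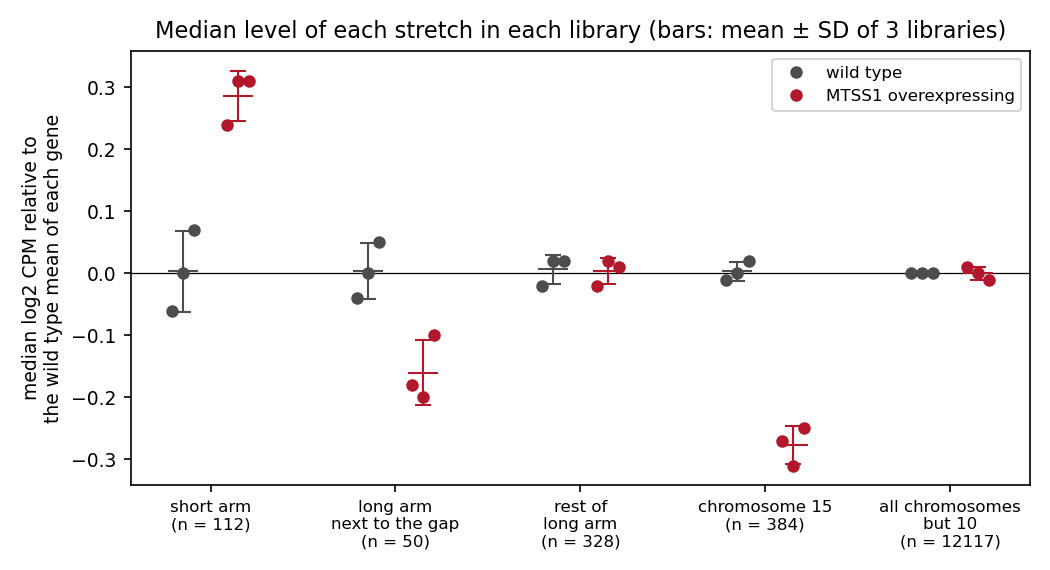
Median log2 CPM of each stretch in each library, relative to the wild type mean of each gene (vertical axis, log2 units); points are libraries (grey wild type, red MTSS1 overexpressing), bars the mean ± SD of 3 libraries. The short-arm medians of the overexpressing libraries lie at 0.24 to 0.31, above the wild type range of -0.06 to 0.07, while the 328 genes on the rest of the long arm overlap between groups.

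Along the chromosome the sign of the median turned at the gap. In windows of 10 Mb from the short-arm end, the median log2 fold change was 0.32, 0.33, 0.21 and 0.21 up to 40 Mb. All 24 members of the first window lay above 0, then 36 of 38, 22 of 28 and 20 of 22. In the window from 40 to 50 Mb, which opens the long arm, the median was -0.20 and 5 of 33 members lay above 0. From 50 to 60 Mb it was -0.11 over 17 members, of which 6 were above 0. The 8 windows further out had medians between -0.04 and 0.09.

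**Figure D2:**
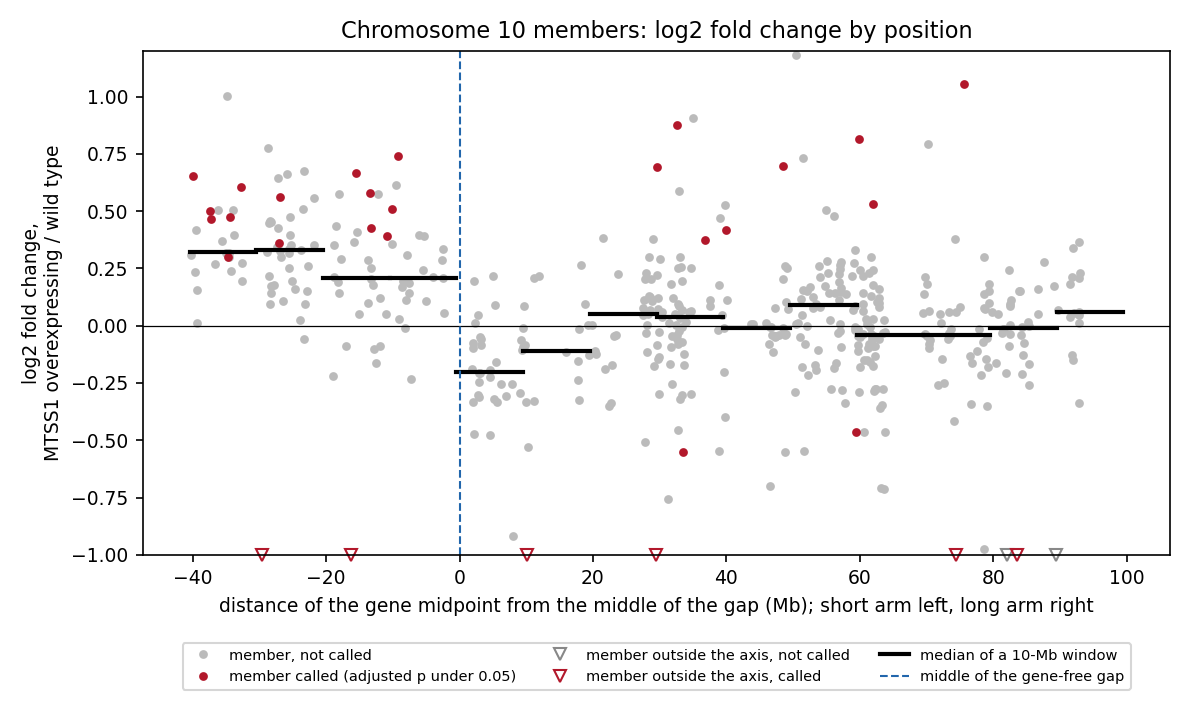
Log2 fold change of the 490 members (vertical axis) against the distance of the gene midpoint from the middle of the gene-free gap in Mb (horizontal axis); red marks are members past adjusted p 0.05, triangles lie outside the axis, and black bars are medians of 10-Mb windows. The bars left of the gap lie at 0.21 to 0.33 and the first bar right of it at -0.20.

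The turn fell between neighbours on either side of the gap. Of the last 10 members on the short arm, 9 lay above 0 (median 0.23, range -0.23 to 0.40), and of the first 10 on the long arm, 3 did (median -0.15, range -0.47 to 0.19). With 20 on each side the counts were 18 and 4, with medians of 0.20 and -0.19. Of those 20 short-arm genes 8 had every overexpressing library above every wild type library and 0 the reverse, whereas of the 20 long-arm genes 0 were fully higher and 5 fully lower. Over all genes at the CPM limit 13.1% were fully higher and 14.6% fully lower. The windows and these counts were set with the values in view.

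The shift was alike across classes of short-arm genes. Its median log2 fold change was 0.32 for the 32 members under 10 CPM, 0.29 for the 41 members from 10 to 50 CPM and 0.29 for the 39 members at 50 CPM or more, and all 39 of the last class lay above 0. It was 0.30 for 98 protein-coding members and 0.26 for the 14 others, 0.30 for genes that span under 50 kb and for longer ones, and 0.30 on either strand. The 29 members that overlap no other annotated gene had a median of 0.35, and the 83 that do had 0.30. Genes of other chromosomes in the same 3 CPM classes had medians of 0.03, -0.01 and 0.00.

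Set among whole chromosomes at the same CPM limit, chromosome 10 had a median log2 fold change of 0.05, the eighth highest of 23. Chromosome 17 had the highest median (0.12) and chromosome 15 the lowest (-0.28, with 41 of its 384 genes above 0). The short arm's 0.30 was above the median of each of the 23 chromosomes, but only chromosome 10 was split, and with the values in view. Chromosome X had a median of -0.02 and the widest spread, with quartiles of -0.27 and 0.35, so its median hides differences in both directions. On chromosome 15 the per-library medians were -0.01, 0.00 and 0.02 in wild type and -0.27, -0.31 and -0.25 in overexpressing cells. That shift was of like size to the short arm's and opposite in sign. Arms of other chromosomes were not compared.

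**Figure D3:**
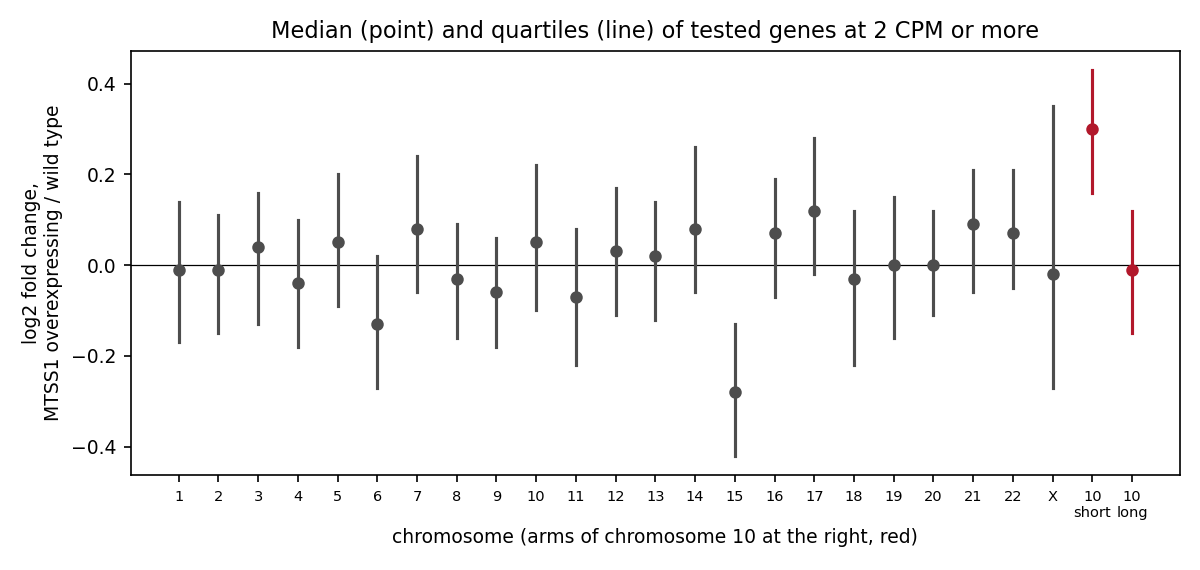
Median (points) and quartiles (lines) of the log2 fold change (vertical axis) of tested genes at 2 CPM or more on each chromosome (horizontal axis), with the arms of chromosome 10 in red at the right. The short arm's quartiles, 0.16 and 0.43, lie above 0, and those of chromosome 15 lie below 0.

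Few of these differences passed the test gene by gene in the main fit, which took no account of neighbouring library pairs. With the threshold of adjusted p under 0.05 over all tested genes (edgeR's quasi-likelihood test, Benjamini-Hochberg), 14 of the 112 short-arm members rose (12.5%) and 2 fell (1.79%). Over all 16091 tested genes 1.82% rose and 2.45% fell, and at the CPM limit 2.21% rose and 2.71% fell. On chromosome X, at the same limit, 12.8% of 478 genes rose and 7.74% fell. On the long arm 8 of 378 rose and 6 fell, all of them past the boundary. The median standard error of a short-arm log2 fold change was 0.13. Since the boundary was chosen on these differences, nothing is read from the count of calls. Leaving out overexpressing replicate 1, 2 or 3 gave 4, 2 and 2 called higher before the boundary, and leaving out wild type replicate 1, 2 or 3 gave 5, 3 and 0. The median before the boundary was 0.26 to 0.30 in the same 6 fits. Without both libraries numbered 1 the count was 0 and the median 0.28.

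With neighbouring title numbers as a block, 58 short-arm members rose and 2 fell, and 39 long-arm members rose and 51 fell. In that fit 13% of all tested genes at the CPM limit rose and 14.3% fell. Counted without a test, 61 of 112 short-arm members (54.5%) had every overexpressing library above every wild type library, and 2 had the reverse. Of the long-arm members 42 were fully higher (11.1%) and 57 fully lower (15.1%). The shares over all genes at the limit were 13.1% and 14.6%.

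The 14 short-arm genes that rose did so by log2 0.30 to 0.74. The largest was ZEB1-AS1, a long noncoding RNA antisense to ZEB1, at 7.21, 8.24 and 7.58 CPM in wild type and 12.1, 15.1 and 11.3 CPM in overexpressing libraries (log2 ratio 0.74 ± 0.16 SE, adjusted p = 0.034 in edgeR). All overexpressing libraries lay above all wild type ones. Without any 1 library it lost the call, with an adjusted p of 0.063 to 0.12 in edgeR. It shares its span with 3 other genes, and the strand setting of the counting is not given in the sources used here. ZEB1 itself had a log2 fold change of 0.03.

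PRTFDC1, a relative of the purine salvage enzyme HPRT1, had the lowest adjusted p among the short-arm genes that rose. It was at 33.0, 33.7 and 35.2 CPM in wild type and 48.8, 52.7 and 60 CPM in overexpressing libraries, with no overlap (log2 ratio 0.66 ± 0.10 SE, adjusted p = 0.011 in edgeR). Without wild type replicate 3 its adjusted p was 0.0501. Its promoter is shown above. ANKRD26, an ankyrin repeat protein of the centrosome, was at 45.3, 51.3 and 53.9 CPM in wild type and 68.3, 76.4 and 79.8 CPM in overexpressing libraries (log2 ratio 0.58 ± 0.10 SE, adjusted p = 0.015 in edgeR). Its groups did not overlap either, and its highest adjusted p without any 1 library was 0.067.

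DIP2C (log2 ratio 0.65 ± 0.15 SE), KIN, which encodes a nuclear protein of DNA replication and repair (0.61, SE 0.13), and BEND7, a BEN domain protein (0.56, SE 0.13), also rose. In DIP2C the wild type libraries lay at 10.4 to 12.2 CPM and the overexpressing ones at 15.1 to 20.1 CPM. SEPHS1, a selenophosphate synthetase, rose by 0.36 (SE 0.08) and GDI2, which keeps Rab proteins in solution, by 0.30 (SE 0.07). GDI2 was at 286 to 290 CPM in wild type and 349 to 361 CPM in overexpressing libraries. In all 5 of these genes the groups did not overlap.

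Against the 14 short-arm members that rose, 2 fell. KIAA1217 (ENSG00000120549, chr10:23694746-24547848) is the human counterpart of the mouse sickle tail gene. It was at 4.40, 6.22 and 4.20 CPM in wild type and 0.220, 0.807 and 0.320 CPM in overexpressing libraries, which is 383 against 32 counts over each group. Its log2 fold change was -3.36 (± 0.43 SE, 10.3-fold lower, adjusted p = 0.0044 in edgeR), and it stayed called without any 1 library. SFTA1P, a surfactant-associated long noncoding RNA known from lung, was at 3.71, 4.96 and 3.72 CPM in wild type and 1.98, 0.961 and 1.44 CPM in overexpressing libraries (log2 ratio -1.53 ± 0.31 SE, adjusted p = 0.029 in edgeR). In both genes every overexpressing library was below every wild type one. Both lie under 10 CPM, and the other short-arm members below 0, 8 in number, had log2 fold changes of -0.23 to -0.01 (NRP1 the lowest, EPC1 the highest) and did not pass.

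**Figure D4:**
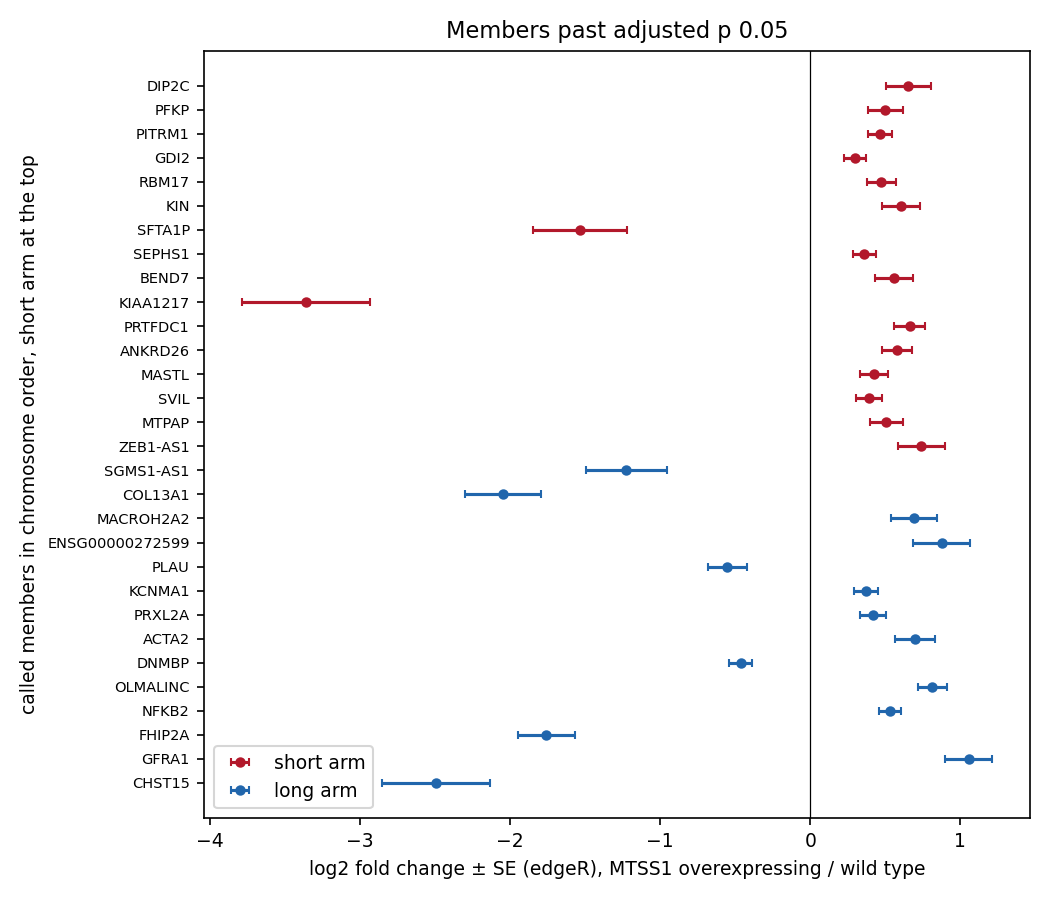
Log2 fold change ± SE of the 30 members past adjusted p 0.05 (horizontal axis), in chromosome order from the short-arm end at the top (red short arm, blue long arm). The 14 short-arm genes that rose lie between 0.30 and 0.74, and KIAA1217 lies at -3.36.

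By function, the short-arm median was above 0 in each of 8 lists of chromosome 10 genes. Since 91.1% of all short-arm members lay above 0, the signs of these medians say nothing about function. The smallest lists had 1 and 2 short-arm members. Medians are of log2 fold changes and counts are of members. Beside the counts of calls in each list stand the shares over all genes at the CPM limit, 2.21% that rose and 2.71% that fell, or 13% and 14.3% with the block. The RNA processing and translation list had 9 short-arm members, all above 0 with a median of 0.42, against 0.05 for its 22 long-arm members. RBM17, a splicing factor, rose from 65.5 to 75.7 CPM in wild type to 91.3 to 108 CPM (log2 ratio 0.47 ± 0.10 SE, adjusted p = 0.030 in edgeR). GTPBP4, a nucleolar GTPase of ribosome assembly, was at 0.42 (adjusted p = 0.064 in edgeR, and 2.4e-04 with the block). HNRNPF, a splicing regulator on the long arm, had a log2 ratio of -0.25 (adjusted p = 0.091 in edgeR, and 0.0019 with the block), and EIF3A, a translation initiation subunit, had 0.14 (adjusted p = 0.51 in edgeR, and 0.037 with the block). In this list 1 short-arm member rose, 0 fell, and none of the long-arm members passed. With the block 6 and 0 short-arm and 6 and 2 long-arm members rose and fell.

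Mitochondrial proteins gave 5 short-arm members, all above 0 with a median of 0.34, and 18 long-arm members with a median of 0.01, 11 of them above 0. PITRM1, which degrades peptides in the matrix, was at 99.2, 94.2 and 102 CPM in wild type and 133, 144 and 130 CPM in overexpressing libraries (log2 ratio 0.46 ± 0.08 SE, adjusted p = 0.014 in edgeR). MTPAP, the mitochondrial poly(A) polymerase, was at 25.6, 24.0 and 29.9 CPM against 38.1, 38.4 and 36.6 CPM (log2 ratio 0.51 ± 0.11 SE, adjusted p = 0.038 in edgeR). Neither gene had overlapping groups. OPTN, an autophagy receptor, had a log2 ratio of 0.34 (adjusted p = 0.096 in edgeR, and 0.0013 with the block). On the long arm GHITM, an inner membrane protein, was at 0.01. No long-arm member of the list passed with or without the block.

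The cell cycle, replication and DNA repair list had 6 short-arm members, all above 0 (median 0.29), and 21 long-arm members with a median of 0.06, 15 of them above 0. MASTL, the Greatwall kinase of mitotic entry, rose from 46.2 to 51.1 CPM in wild type to 61.3 to 72.4 CPM (log2 ratio 0.43 ± 0.09 SE, adjusted p = 0.038 in edgeR). MCM10, a replication initiation factor, was at 70.7, 47.1 and 72.1 CPM in wild type and 102, 82.6 and 112 CPM in overexpressing libraries. The groups did not overlap, and the gene did not pass (log2 ratio 0.64 ± 0.17 SE, adjusted p = 0.065 in edgeR) except with the block (6.5e-05). CUL2, a cullin scaffold of ubiquitin ligases, was at 0.24 (adjusted p = 0.19 in edgeR, and 0.021 with the block), and the proliferation antigen gene MKI67 on the long arm at 0.28 (adjusted p = 0.26 in edgeR, and 0.0059 with the block). None of the long-arm members passed, and with the block 4 rose and 1 fell, beside 4 and 0 on the short arm.

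Metabolic enzymes had 5 short-arm members, all above 0 (median 0.25), and 22 long-arm members with a median of 0.07, 15 of them above 0. PFKP, the platelet-type phosphofructokinase of glycolysis, was at 153, 123 and 133 CPM in wild type and 223, 188 and 169 CPM in overexpressing libraries (log2 ratio 0.50 ± 0.12 SE, adjusted p = 0.0497 in edgeR). Its groups did not overlap. ACBD5, a peroxisomal acyl-CoA binding protein, was at 0.25 (adjusted p = 0.13 in edgeR, and 0.010 with the block). On the long arm ALDH18A1, of proline synthesis, was at 0.28 (adjusted p = 0.078 in edgeR, and 0.0031 with the block) and SCD, a fatty acid desaturase, at -0.29 (0.29, and 0.017 with the block). No long-arm enzyme passed, and with the block 4 rose and 1 fell, beside 3 and 0 on the short arm.

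Transcription factors and chromatin proteins had 13 short-arm members, 12 of them above 0 (median 0.27), and 19 long-arm members with a median of -0.06, 7 of them above 0. None passed in either direction. With the block 6 short-arm members rose and 0 fell, and 1 long-arm member rose and 3 fell, beside 13% and 14.3% of all genes at the limit. KLF6, a zinc finger factor, was at 322, 205 and 318 CPM in wild type and 357, 319 and 343 CPM in overexpressing libraries, with overlap (log2 ratio 0.27 ± 0.16 SE, adjusted p = 0.39 in edgeR, and 0.027 with the block). ZNF438 had 0.61 (SE 0.18, adjusted p = 0.091 in edgeR, and 0.016 with the block) and BMI1, a Polycomb subunit, 0.14. On the long arm ZNF503 had 0.91 (SE 0.30, adjusted p = 0.13 in edgeR, and 0.036 with the block).

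Cytoskeleton and adhesion genes showed the smallest short-arm median of the 8 lists, 0.16 over 10 members with 9 above 0, beside 0.09 over 20 long-arm members with 14 above 0. SVIL, the actin-binding protein supervillin, was at 85.9, 88.2 and 86.5 CPM in wild type and 124, 105 and 113 CPM in overexpressing libraries (log2 ratio 0.39 ± 0.08 SE, adjusted p = 0.036 in edgeR). VIM was at 4470, 4470 and 4260 CPM in wild type and 4810, 4730 and 4570 CPM in overexpressing libraries, with no overlap, and did not pass (log2 ratio 0.10 ± 0.08 SE, adjusted p = 0.58 in edgeR). ITGB1 had 0.14. With the block 4 short-arm members rose and 0 fell, and 3 long-arm members rose and 5 fell.

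The NF-κB and inflammatory list had 1 short-arm member, PRKCQ, a protein kinase C of T-cell signalling, with a log2 fold change of 0.51 (adjusted p = 0.11 in edgeR, and 0.024 with the block). Its 11 long-arm members had a median of -0.04, with 5 above 0, 1 that rose and 1 that fell. With the block PRKCQ rose, and 2 long-arm members rose and 3 fell. NFKB2, which encodes the p100 precursor of p52, was at 146, 150 and 140 CPM in wild type and 219, 207 and 203 CPM in overexpressing libraries, with no overlap. Its log2 fold change was 0.53 (± 0.07 SE, adjusted p = 0.0075 in edgeR, and 0.0501 without wild type replicate 3). CHUK, the kinase that acts on p100, was at 49.4, 40.8 and 49.2 CPM against 42.8, 42.5 and 45.9 CPM, with overlap (log2 ratio -0.09 ± 0.10 SE, adjusted p = 0.73 in edgeR). PIK3AP1, an adaptor for phosphoinositide 3-kinase, was at 0.48 (adjusted p = 0.068 in edgeR, and 0.0078 with the block).

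Receptors, kinases, phosphatases and their regulators had 2 short-arm members, both above 0 (median 0.24), and 21 long-arm members with a median of -0.05, 8 of them above 0. Of the latter 1 rose and none fell, and with the block 1 rose and 2 fell, beside 1 and 0 on the short arm. PIP4K2A, a lipid kinase of the short arm, had 0.29 (adjusted p = 0.11 in edgeR, and 0.0077 with the block).

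Duplicated genes on either side of the gap allow the arms to be read in closely related transcripts, although reads shared between copies make each of these values uncertain. ZNF33A, on the short arm, was at 25.1, 27.5 and 27.3 CPM in wild type and 29.4, 36.6 and 34.7 CPM in overexpressing libraries. Its log2 fold change was 0.34 (± 0.11 SE, adjusted p = 0.14 in edgeR, and 0.010 with the block), with no overlap. ZNF33B, on the long arm, was at 39.4, 59.7 and 44.8 CPM in wild type and 29.2, 39.7 and 34.7 CPM in overexpressing libraries, with overlap. Its log2 fold change was -0.47 (± 0.17 SE, adjusted p = 0.15 in edgeR, and 0.0010 with the block). The signs of this pair are those of the stretches that hold them, and neither gene passed without the block.

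The other pairs showed less. ZNF37A on the short arm had a log2 fold change of 0.05 and its long-arm pseudogene ZNF37BP -0.08, and the cyclin gene CCNY had 0.11 and its long-arm pseudogene CCNYL2 -0.10, each with an SE of 0.10 or 0.11 and overlapping groups. These pairs were picked with their values in view.

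The long arm next to the gap leaned the other way. The 50 members from the gap to 60 Mb had a median log2 fold change of -0.16 (quartiles -0.30 and -0.02), with 11 above 0. Their median log2 level relative to wild type was -0.04, 0.00 and 0.05 in wild type and -0.18, -0.20 and -0.10 in overexpressing libraries, with no overlap. In 16 of the 50 (32.0%) every overexpressing library was below every wild type one, and in 0 the reverse, beside 14.6% and 13.1% of all genes at the limit. The limit of 60 Mb was set with the values in view. SGMS1-AS1, antisense to the sphingomyelin synthase gene SGMS1, was the member of this stretch that passed (log2 ratio -1.23 ± 0.27 SE, adjusted p = 0.038 in edgeR), and with the block 12 of the 50 fell and 1 rose, beside 14.3% and 13% of all genes at the limit in that fit. These 50 genes had lower levels, with a median of 14.2 CPM against 29.2 CPM for the short arm. Their median was 2030 counts over the 6 libraries, against 4100.

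NCOA4, the receptor for ferritin turnover, was at 208, 220 and 223 CPM in wild type and 160, 174 and 183 CPM in overexpressing libraries, with no overlap. It just missed the threshold (log2 ratio -0.33 ± 0.08 SE, adjusted p = 0.0516 in edgeR, and 6.3e-04 with the block). HNRNPF was at 429, 425 and 444 CPM against 362, 361 and 372 CPM, also with no overlap. MAPK8, the stress kinase JNK1, had -0.25 (adjusted p = 0.18 in edgeR, and 0.017 with the block) and ARHGAP22, a Rac-specific GTPase-activating protein, -0.92 (0.065 and 0.0013). TFAM, the mitochondrial DNA packaging factor, had -0.01. A few members of the stretch leaned the other way, among them BICC1, an RNA-binding protein, at 0.27 (adjusted p = 0.27 in edgeR, and 0.0476 with the block). These examples, NCOA4 and HNRNPF excepted, were picked with their values in view.

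From 60 Mb outward the long arm held single genes that changed strongly amid a median of 0.01 over 328 members. This stretch holds 328 of the 378 long-arm members. All 8 long-arm genes that rose and 5 of the 6 that fell lay here. These are 2.44% and 1.52% of the stretch, beside 2.21% and 2.71% of all genes at the CPM limit. GFRA1, a co-receptor for glial neurotrophic factors, was at 9.76, 12.7 and 9.01 CPM in wild type and 21.8, 19.8 and 23.9 CPM in overexpressing libraries (log2 ratio 1.06 ± 0.16 SE, adjusted p = 0.0091 in edgeR). OLMALINC, a long noncoding RNA next to SCD, was at 25.3, 24.2 and 26.5 CPM against 46.3, 43.9 and 43.3 CPM (log2 ratio 0.81 ± 0.10 SE, adjusted p = 0.0036 in edgeR). Neither gene's groups overlapped. The clone-based gene ENSG00000272599 (0.88), the smooth muscle actin gene ACTA2 (0.70), the histone variant gene MACROH2A2 (0.69), PRXL2A, a peroxiredoxin-like protein (0.42), and KCNMA1, the large-conductance potassium channel (0.37), rose as well.

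The 3 largest falls on the long arm exceeded its largest rise in size. FHIP2A (ENSG00000151553, chr10:114821744-114899832), a partner of Hook proteins in vesicle transport, was at 87.3, 150 and 99.8 CPM in wild type and 28.2, 35.2 and 35.9 CPM in overexpressing libraries. Its log2 fold change was -1.76 (± 0.19 SE, 3.38-fold lower, adjusted p = 0.0027 in edgeR). CHST15, which adds sulfate to chondroitin chains, was at 3.77, 4.53 and 4.73 CPM against 0.367, 1.11 and 0.720 CPM (log2 ratio -2.49 ± 0.36 SE, adjusted p = 0.0081 in edgeR). COL13A1, a transmembrane collagen, was at 7.21, 8 and 5.71 CPM against 1.76, 1.27 and 2.04 CPM (log2 ratio -2.05 ± 0.25 SE, adjusted p = 0.0041 in edgeR). In all 3 genes every overexpressing library lay below every wild type one.

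PLAU, the urokinase-type plasminogen activator, was at 680, 515 and 662 CPM in wild type and 405, 485 and 376 CPM in overexpressing libraries, close but without overlap (log2 ratio -0.55 ± 0.13 SE, adjusted p = 0.0469 in edgeR). DNMBP, an exchange factor for the GTPase Cdc42, fell from 223 to 233 CPM in wild type to 154 to 170 CPM (log2 ratio -0.46 ± 0.08 SE, adjusted p = 0.014 in edgeR). Of the 30 members that passed, 6 did so whichever single library was left out. These were KIAA1217, COL13A1, OLMALINC, FHIP2A, GFRA1 and CHST15, and only KIAA1217 among them is on the short arm. The other members that passed lost the call in at least 1 of those 6 fits. Of these, DIP2C, KIN, RBM17, MASTL, MTPAP, ZEB1-AS1, SGMS1-AS1, MACROH2A2, KCNMA1, PRXL2A and ACTA2 lost it in all 6. With the block all 30 passed.

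**Figure D5:**
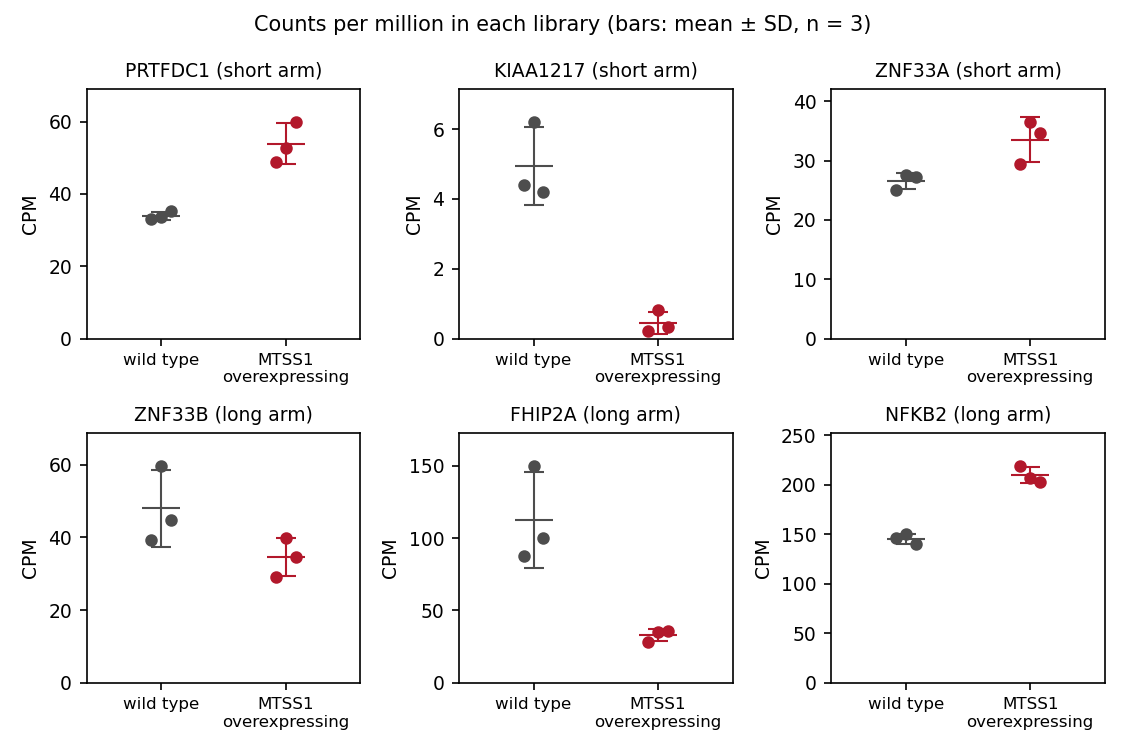
CPM (vertical axes, from 0) of 6 members in each library (grey wild type, red MTSS1 overexpressing), with bars for the mean ± SD of 3 libraries. PRTFDC1, NFKB2 and ZNF33A are higher in every overexpressing library, KIAA1217 and FHIP2A are lower in every one, and ZNF33B overlaps between the groups.

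Before the boundary the nearest were HNRNPF (log2 fold change -0.25), LINC02916 (-0.21) and ZNF487 (-0.31), and past it ZNF239 (-0.21), ZNF485 (-0.06) and ZNF32 (-0.09). All 6 are on the long arm. Just above the CPM limit were SPAG6 (mean 2.01 CPM, log2 fold change 0.58) and RBM20 (2.03 CPM, 0.79), and just under it SFMBT2 (1.96 CPM, 0.12) and IL15RA (1.92 CPM, 0.77). Another 120 genes of the chromosome were tested but lay under the limit. Of the protein-coding genes on chromosome 10, 120 of 723 (16.6%) had 0 counts in every library, against 19.5% on other chromosomes, and such a 0 is a listed value.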

How the data were processed

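Values are the deposited raw counts, whole numbers of reads for each Ensembl gene. Per the submitters' processing notes, bcl2fastq, HISAT2 2.1.0, HTSeq and the GRCh38 build were used. Which annotation release and strand setting HTSeq used is not given in the sources used here. Overlapping genes (314 of the 490 members overlap another), antisense genes and near-identical copies are therefore uncertain. Libraries came from poly(A) RNA with a directional kit and single reads of 50 cycles, per the labels. The labels do not say that replicates were separate cultures, and p-values then speak only of the spread among these libraries, which may be technical. No library was a copy of another, since chi-square over degrees of freedom was 14.7 to 28 between replicates of a group.

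Positions came from GENCODE release 29, symbols from the name table given, or from GENCODE for 3 members, and promoters from RefSeq. CPM are counts scaled to each library's TMM-adjusted size. Differences were tested with edgeR 4.0.16 (R 4.3.3; TMM, filterByExpr, glmQLFit and glmQLFTest, two-sided, Benjamini-Hochberg over 16091 genes, adjusted p under 0.05); the SE is the log2 fold change over the square root of the F statistic. Levels relative to wild type used log2 CPM with a prior count of 2. DESeq2 1.42.0 was an alternative. Other alternatives changed the scaling, filters, boundary, gene types, pairing and libraries.

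The members, the 8 lists and the boundary were chosen with earlier results of these data known. Named genes (clone-based names and pseudogenes left out) were the 8 highest and 8 lowest called on each side of the boundary, the 3 smallest p and the highest CPM of each list, those nearest the limits, and NFKB2, CHUK, VIM and MTSS1; other genes were picked with their values in view. A gene named by the rule is not reported here. The labels state no pairing, but deviations from the group means correlated within the neighbouring pairs at 0.78, 0.49 and 0.581 over 12607 genes, and at -0.466 to 0.0184 across pairs, so values with this block are given where they change a call.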

Additional observations from a re-analysis of the deposited data

How the results depend on the processing

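The difference of median log2 fold changes between the sides of the boundary was 0.26 to 0.31 under every alternative but 1. Among members that overlap no other gene it was 0.19 (median 0.21 before and 0.03 past the boundary), with 3 called higher and 1 lower before it and 3 and 3 past it. The side before the boundary also holds long-arm members. Split at the gap, the 29 short-arm members that overlap no other gene had a median of 0.35, and the 83 that do had 0.30. DESeq2 called 1253 genes in place of 688, 28 higher before the boundary and 15 lower past it. With no low-count filter the numbers were 1489, 25 and 15. With neighbouring title numbers as a replicate block they were 3651 genes, 58 higher and 6 lower before the boundary, and 39 and 47 past it. The block moved 17 of 55 named genes past the threshold and took none below it. Without both libraries numbered 1, 132 genes were called, 0 higher and 1 lower before the boundary and 1 and 3 past it. Without 1 library at a time, 145 to 346 genes were called, with 0 to 5 higher and 1 to 2 lower before the boundary, 2 to 4 higher and 3 to 8 lower past it, and a median past it of -0.02 to 0.03. At limits of 5 and of 10 CPM, 0 were called lower before the boundary and 3 past it, and among protein-coding members 1 was called lower before it. Signs near 0 turned for ZNF485 (-0.15 to 0.05 without 1 library) and GHITM (-0.06 to 0.06 without 1 library, 0.00 without both libraries numbered 1). The cause of these moves was not tested beyond fewer libraries or members. DESeq2 size factors, TMM without chromosome 10, other prior counts and the centromere gap as boundary changed no call count by over 1.5 times. The median SE of a short-arm log2 fold change was 0.13, beside a median of 0.30, and how far depth sets that SE was not tested.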
